A study of Mus musculus with 6 samples.

Results

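The 35 genes described here are markers of macrophages and monocytes of the heart, selected by gene symbol from the 18158 features of 1 expression table, with the macrophage protein F4/80 listed under its older symbol, Emr1. All 35 were found, and all 35 were at 1 TPM or more in each of the 6 hearts. TPM is an abundance corrected for transcript length that sums to 1000000 in every library, so that levels of different genes can be set side by side. RNA was sequenced from whole ventricles of 3-month-old outbred CD1 mice, with 1 library per mouse. Of these, 3 mice received paromomycin and neomycin, 2 aminoglycoside antibiotics given together (Paro/Neo) into the peritoneum for 14 days, 2 doses of 150 mg/kg each day, and 3 received PBS injections as the vehicle over the same days. The labels name no transgene or deletion in either group. The study's design text places the comparison in a setting where the drugs suppress Meis1 and Hoxb13, transcription factors of the cardiomyocyte.

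Macrophages are the most numerous resident leukocytes of the healthy heart. Resident macrophages, marked by Timd4, Folr2 and Lyve1, largely maintain themselves by division, while monocytes that carry the chemokine receptor gene Ccr2 enter from the blood and can become macrophages in the tissue. Both depend on the transcription factor PU.1. Most tissue macrophages depend on signals through the receptor Csf1r, and macrophages clear dying cells and debris, secrete complement C1q and present antigen. In RNA from whole ventricle, fewer cells of a type and less RNA per cell cannot be told apart.

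Assigned reads ranged from at least 9556387 to at least 15969980 per library, as inferred from the steps of the low TPM values, and the members had between 11 and 3773 inferred reads per library. Paro/Neo replicate 1 stood apart: its mean correlation with the other libraries was 0.9755, against 0.9814 to 0.9853 for the others, so results are also given without it. Cardiomyocyte genes had summed levels of 125736 to 154820 TPM in Paro/Neo hearts and 132210 to 141068 TPM in vehicle hearts. The 35 genes summed to 1193 to 1208 TPM in Paro/Neo hearts and to 1099 to 1236 TPM in vehicle hearts, ranges that overlapped.

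Promoter windows are shown for Ctss and Fcgr1, which stand among the 3 members with the smallest p, and for Trem2, the member of smallest p among those lower in treated hearts, because these windows hold letters that the transcription factors of macrophages and of the interferon response are known to read. Each runs 5′ to 3′ on the strand of the gene and ends 1 base before the annotated start (RefSeq, GRCm38.p6). Capitals mark 3 motifs searched on both strands, the PU.1 core GAGGAAG, the interferon-stimulated response element GAAANNGAAA and the STAT element TTCNNNGAA. They were chosen after the values were seen, and none of the marked stretches overlapped another.
Ctss: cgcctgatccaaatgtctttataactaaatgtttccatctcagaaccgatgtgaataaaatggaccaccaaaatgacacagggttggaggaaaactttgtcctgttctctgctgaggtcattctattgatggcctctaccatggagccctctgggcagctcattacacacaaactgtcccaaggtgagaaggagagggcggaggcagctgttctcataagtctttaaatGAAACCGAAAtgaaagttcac
Fcgr1: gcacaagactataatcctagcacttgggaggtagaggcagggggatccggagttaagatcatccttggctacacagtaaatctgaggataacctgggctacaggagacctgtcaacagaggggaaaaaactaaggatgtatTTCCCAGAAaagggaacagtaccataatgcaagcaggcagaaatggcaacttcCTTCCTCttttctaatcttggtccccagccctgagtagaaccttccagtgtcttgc
Trem2: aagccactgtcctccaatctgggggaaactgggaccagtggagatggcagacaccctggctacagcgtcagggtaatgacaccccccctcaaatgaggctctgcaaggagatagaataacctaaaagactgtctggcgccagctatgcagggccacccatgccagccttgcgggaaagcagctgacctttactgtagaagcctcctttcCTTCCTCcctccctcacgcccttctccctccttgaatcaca

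The windows lie at chr3:95526536-95526785 on the plus strand for Ctss, chr3:96293970-96294219 on the minus strand for Fcgr1 and chr17:48346151-48346400 on the plus strand for Trem2. In Ctss the marked GAAACCGAAA covers bases -21 to -12 from the start. In Fcgr1 the STAT element covers bases -109 to -101 and the PU.1 core, on the other strand, bases -56 to -50. In Trem2 the PU.1 core, also on the other strand, covers bases -41 to -35. Of the 35 members, 27 had an entry in the promoter table, with 33 windows. The PU.1 core was found in 11 of these windows, 33.3%, against 10.6% of the 32851 windows of all genes. The interferon-stimulated response element was in 2 of the 33, those of Ctss and Aif1, or 6.06%, against 2.98% of all windows, and the STAT element in 1 of the 33, that of Fcgr1, or 3.03%, against 7.02%. Both windows of Ptprc held none of the 3. A match describes letters only.

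**Figure D1:**
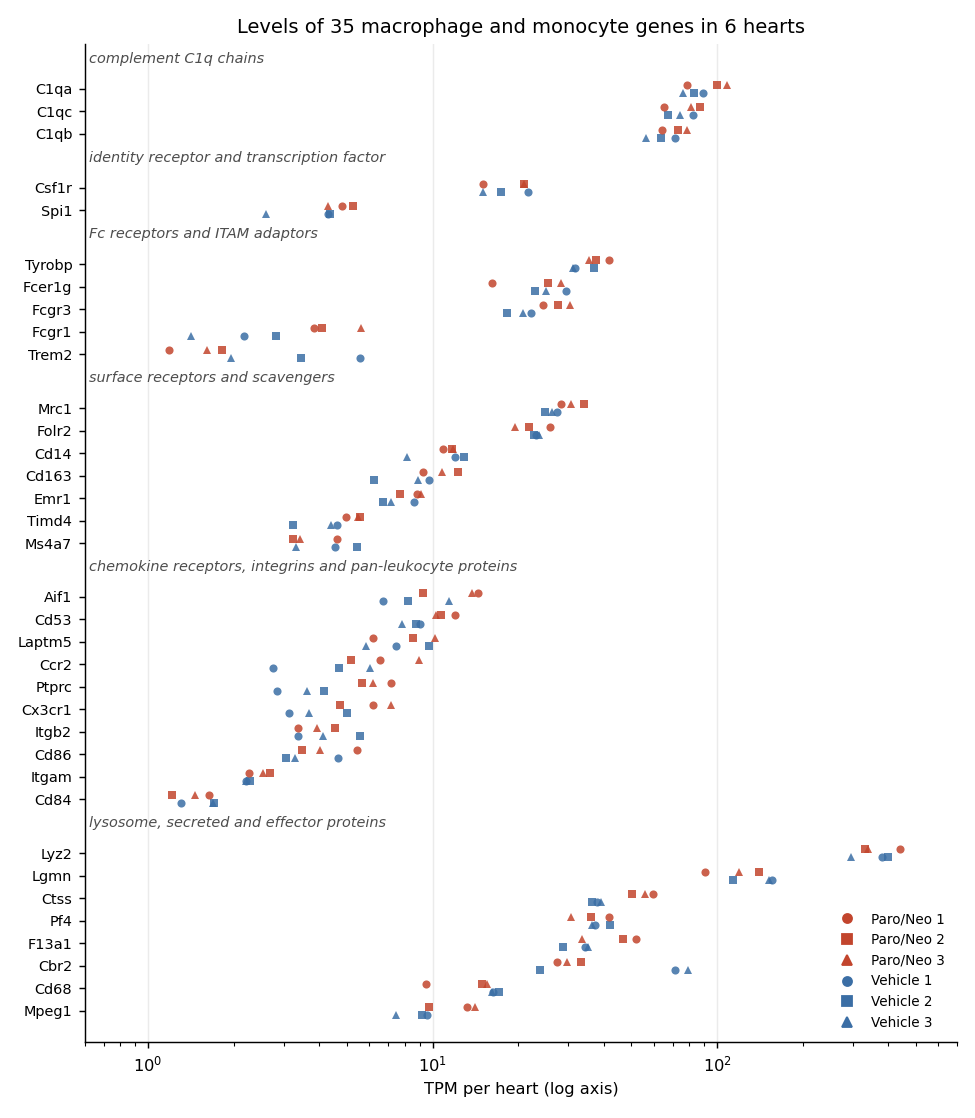
TPM of each of the 35 genes in each heart on a log axis, grouped by role, with Paro/Neo hearts in red and vehicle hearts in blue and the replicate shown by the symbol. Levels ran from 1.19 TPM for Trem2 to 441 TPM for Lyz2, and for most genes the red and blue symbols overlapped.

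Over the 35 genes, none passed the threshold of an adjusted p under 0.05 in a test of all genes (limma, 12409 genes, Benjamini-Hochberg), where 0.137% of tested genes did in either direction, 0.121% higher and 0.0161% lower. Without adjustment, 8 members were higher in Paro/Neo hearts at p under 0.05, 22.9% of the list, against 3.24% of all tested genes. These 8 were Ctss, Ptprc, Fcgr1, Fcgr3, Cd53, Mpeg1, Cx3cr1 and F13a1. Trem2 alone was lower at an unadjusted p under 0.05, 2.86% of the list against 4.37% of all tested genes. By voom on the inferred reads 0 members passed the adjusted threshold, where 20 of the 12409 tested genes were called higher and 3 lower. Before adjustment 9 members were higher and 1 lower by voom, but the share of all tested genes in that fit is not given.

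In 8 members each Paro/Neo heart lay above each vehicle heart, against 6.04% of all tested genes, and in 2 each lay below, against 8.22%. The 8 were Ctss, Ptprc, Fcgr1, Fcgr3, Cd53, Mpeg1, Timd4 and Mrc1, and the 2 were Trem2 and Cd68. In all, 25 members had a positive log2 change and 10 a negative one, while 46.3% of all tested genes were positive. The median log2 change of the members was 0.17, against -0.02 for all tested genes. The median was 0.22 without Paro/Neo replicate 1, with 8 members higher at an unadjusted p under 0.05 and 0 lower, where 3.33% of all tested genes were higher and 3.96% lower in the same fit. Of these 8, 5 were also among the 8 over all hearts, and C1qa, Cd163 and Mrc1 took the place of Cx3cr1, F13a1 and Mpeg1. Ctss, Ptprc, Fcgr1 and Fcgr3 stayed under an unadjusted p of 0.05 in all 6 fits that left out 1 library. In these fits 24 of the 35 log2 changes moved by over 1.5 times or to the other sign at least once, and 11 did not, those of Ctss, Ptprc, Fcgr1, Fcgr3, Tyrobp, Mrc1, Cx3cr1, Cd53, Aif1, Mpeg1 and F13a1.

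**Figure D2:**
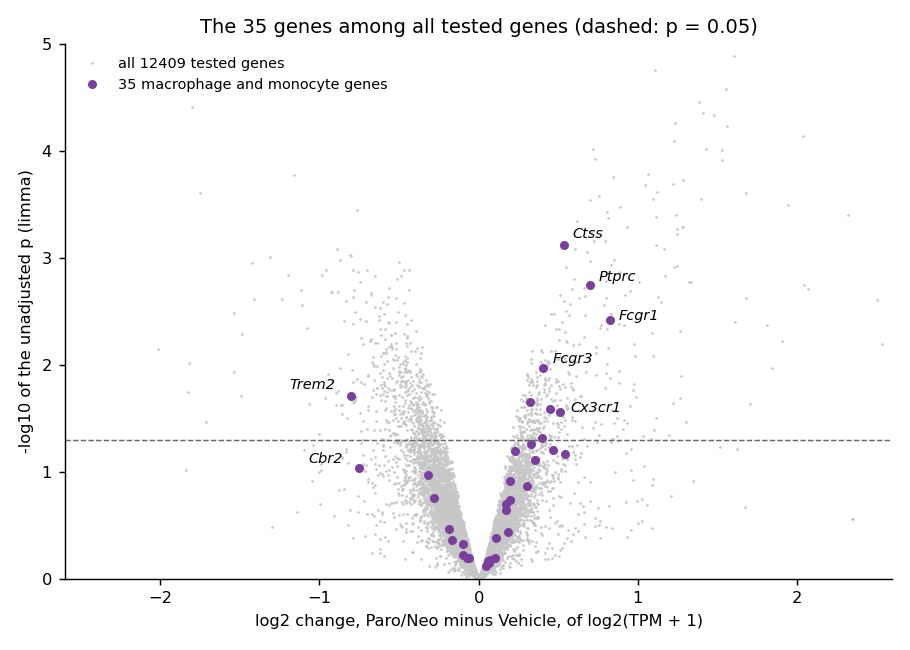
Each point is 1 tested gene, with its log2 change (Paro/Neo minus vehicle) on the horizontal axis and -log10 of its unadjusted p by limma on the vertical axis, the 35 genes in purple and 10 points beyond the axes not drawn. Ctss, Ptprc and Fcgr1 lie highest of the 35, with 8 members to the right and Trem2 to the left above the dashed line.

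Csf1r, the receptor for the growth factor CSF1 on which most tissue macrophages depend, was at 15.1, 20.9 and 20.9 TPM in Paro/Neo hearts and 21.7, 17.5 and 15.01 TPM in vehicle hearts. The highest value was in a vehicle heart and the ranges overlapped nearly in full, with a log2 change of 0.07 ± 0.17 (SE) and an adjusted p of 0.936 by limma. Spi1, which encodes PU.1, the factor that specifies myeloid cells, was at 4.82, 5.27 and 4.29 TPM in Paro/Neo hearts and 4.31, 4.38 and 2.59 TPM in vehicle hearts. All 3 Paro/Neo hearts lay close together, and the lowest heart was vehicle replicate 3 with 17 inferred reads, the shallowest library.

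The 3 chains of complement C1q, the recognition molecule of the classical complement pathway, are encoded side by side on chromosome 4 (GRCm38, GENCODE M21), C1qb at 136880129 to 136886187, C1qc at 136889804 to 136893065 and C1qa at 136895917 to 136898803. C1qa was at 78.7, 100 and 109 TPM in Paro/Neo hearts and 88.9, 83.3 and 75.9 TPM in vehicle hearts. C1qb was at 63.9, 73.02 and 78.4 TPM in Paro/Neo hearts and 71.2, 63.3 and 56.1 TPM in vehicle hearts, and C1qc at 65.2, 87.5 and 81.2 TPM in Paro/Neo hearts and 82.04, 67.3 and 74.3 TPM in vehicle hearts. For each chain the groups overlapped, Paro/Neo replicate 1 was the lowest of its group, and the log2 changes were 0.20 ± 0.14 (SE), 0.17 ± 0.12 (SE) and 0.06 ± 0.14 (SE) for C1qa, C1qb and C1qc, with adjusted p from 0.757 to 0.929 by limma. Within a heart the C1qb to C1qa ratio of TPM was 0.722 to 0.812 in Paro/Neo hearts and 0.739 to 0.800 in vehicle hearts. The C1qc to C1qa ratio was spread more widely, at 0.828, 0.875 and 0.747 in Paro/Neo hearts and 0.922, 0.807 and 0.978 in vehicle hearts. Both ratios overlapped between the groups.

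Receptors for immunoglobulin G held the largest positive log2 change of the 35 genes. Fcgr1 encodes the high-affinity receptor, known to be induced by interferon, and lies on chromosome 3 at 96282909 to 96293969. It was at 3.82, 4.097 and 5.61 TPM in Paro/Neo hearts and 2.17, 2.82 and 1.41 TPM in vehicle hearts, with 80, 71 and 94 inferred reads in Paro/Neo hearts and 46, 50 and 18 in vehicle hearts. The groups did not overlap, the means were 4.51 ± 0.961 TPM in Paro/Neo hearts and 2.13 ± 0.702 TPM in vehicle hearts (SD, n = 3 each), a ratio of 2.11. The log2 change was 0.82 ± 0.21 (SE), and limma gave an adjusted p of 0.32. Fcgr3, a low-affinity receptor, was at 24.4, 27.5 and 30.4 TPM in Paro/Neo hearts and 22.2, 18.3 and 20.7 TPM in vehicle hearts, also without overlap. Its log2 change was 0.41 ± 0.12 (SE) and its adjusted p 0.481 by limma. Fcgr3 has close relatives in sequence, and how the counting shared reads among them is uncertain.

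Of the 5 Fc receptor and adaptor genes, 3 had positive and 2 negative log2 changes, with a median of 0.20. The adaptor genes, which carry the signals of these receptors, overlapped between the groups. Fcer1g, the common gamma chain that the Fc receptors need, was at 16.2, 25.4 and 28.4 TPM in Paro/Neo hearts and 29.5, 22.8 and 25.04 TPM in vehicle hearts. Its lowest value was in Paro/Neo replicate 1, and its log2 change was -0.17 ± 0.20 (SE), or 0.06 without that heart. Tyrobp, the adaptor of Trem2, was at 41.7, 37.5 and 35.5 TPM in Paro/Neo hearts and 31.7, 36.9 and 31.3 TPM in vehicle hearts, with a log2 change of 0.20 ± 0.11 (SE) and an adjusted p of 0.723 by limma.

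Trem2, a lipid-sensing receptor that pairs with Tyrobp, had the largest negative log2 change of the members. It was at 1.19, 1.83 and 1.62 TPM in Paro/Neo hearts and 5.54, 3.44 and 1.95 TPM in vehicle hearts, from 11, 14 and 12 inferred reads in Paro/Neo hearts and 52, 27 and 11 in vehicle hearts. The 3 Paro/Neo hearts lay within a narrow range below every vehicle heart, while the vehicle hearts were spread widely and replicate 3 came close to the treated ones. The log2 change was -0.80 ± 0.28 (SE), with an unadjusted p of 0.0195 and an adjusted p of 0.521 by limma. Without Paro/Neo replicate 1 it was -0.70, with an unadjusted p of 0.0654 by limma, and without vehicle replicate 1 it was -0.52, with an unadjusted p of 0.0594 by limma. Chromosome 17 carries the gene, at 48346401 to 48354147.

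**Figure D3:**
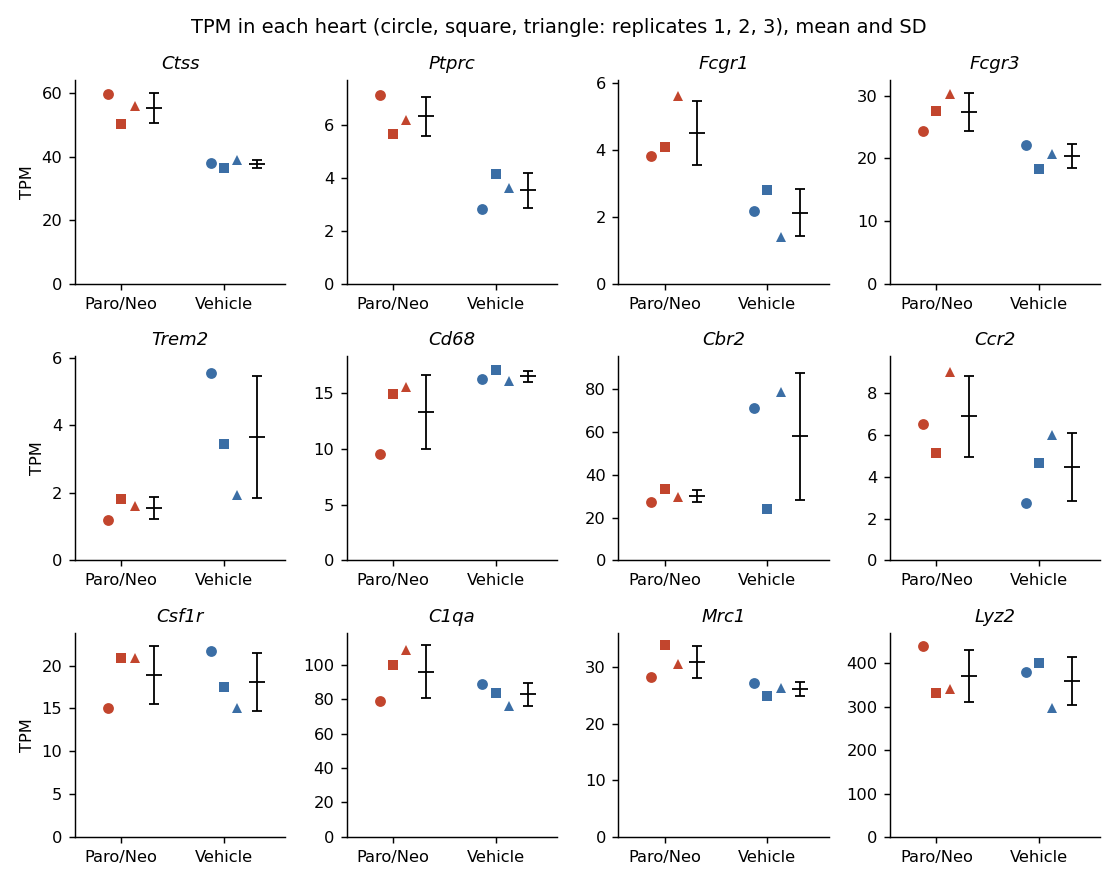
TPM of 12 of the genes in each heart, with Paro/Neo hearts in red on the left and vehicle hearts in blue on the right of each panel, and the mean and SD of 3 hearts in black. Ctss, Ptprc, Fcgr1, Fcgr3 and Mrc1 are higher without overlap in Paro/Neo hearts, Trem2 and Cd68 lower without overlap, and Csf1r, C1qa and Lyz2 overlap.

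Ctss encodes cathepsin S, the lysosomal protease that trims the invariant chain from MHC class II molecules, and lies on chromosome 3 at 95526786 to 95556403. It had the smallest p of the 35 genes. It was at 59.6, 50.3 and 55.97 TPM in Paro/Neo hearts and 37.9, 36.5 and 39.03 TPM in vehicle hearts, or 55.3 ± 4.69 TPM in Paro/Neo hearts and 37.8 ± 1.29 TPM in vehicle hearts (SD, n = 3 each), with a ratio of means of 1.46. Each Paro/Neo heart lay above the 3 vehicle hearts, which were within 3 TPM of each other. The log2 change was 0.53 ± 0.10 (SE) and the adjusted p 0.166 by limma, and over 14 other ways of processing the log2 change stayed between 0.46 and 0.60 and the adjusted p between 0.0933 and 0.454.

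Ctss is 1 of 8 members grouped as lysosomal, secreted and effector proteins, with F13a1, Pf4 and Cbr2 among the others. Of these 8, 4 had positive and 4 negative log2 changes, with a median of -0.03 and 0 past the adjusted threshold by limma. Before adjustment 3 were higher and 0 lower, where 3.24% and 4.37% of all tested genes were. Lgmn, an asparagine-specific protease of the same compartment, was at 90.5, 141 and 119 TPM in Paro/Neo hearts and 157, 114 and 153 TPM in vehicle hearts, with a log2 change of -0.28 ± 0.19 (SE). Paro/Neo replicate 1 was the lowest heart for Lgmn, and without it the log2 change was -0.11. Cd68, a heavily glycosylated lysosomal membrane protein widely used as a macrophage stain, was at 9.51, 14.9 and 15.5 TPM in Paro/Neo hearts and 16.3, 17.1 and 16.1 TPM in vehicle hearts. The groups did not overlap, and the vehicle hearts were nearly equal, but the log2 change of -0.32 ± 0.18 (SE) was -0.11 without Paro/Neo replicate 1. Of 5 ratios between pairs of members chosen after their values were seen, 2 concern Ctss. Within a heart the ratio of Ctss to Lgmn was 0.659, 0.358 and 0.469 in Paro/Neo hearts and 0.242, 0.321 and 0.255 in vehicle hearts. These did not overlap, but no share over all genes is given for such a ratio. The ratio of Ctss to Cd68 was 6.27, 3.38 and 3.61 in Paro/Neo hearts and 2.33, 2.14 and 2.42 in vehicle hearts. Ctss was higher and Cd68 lower without overlap, so their ratio could not overlap and adds nothing to the separate values. Mpeg1, a pore-forming protein of the phagosome, was at 13.2, 9.68 and 14.1 TPM in Paro/Neo hearts and 9.55, 9.22 and 7.41 TPM in vehicle hearts and higher without overlap, with a log2 change of 0.45 ± 0.16 (SE), and limma gave an adjusted p of 0.565. Lyz2, lysozyme, the most abundant member, was at 441, 332 and 340.4 TPM in Paro/Neo hearts and 380.2, 399.9 and 297 TPM in vehicle hearts, and its groups overlapped. Its near copy Lyz1 was at 0.772 to 2.42 TPM over the 6 hearts.

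Among lysosomal genes that most cells express, 7 of 18 were higher and 11 lower, the median log2 change being -0.05, with 0 past the adjusted threshold by limma. At an unadjusted p under 0.05 by limma 0 were higher and 3 lower, where 3.24% and 4.37% of all tested genes were. The smallest p in that list belonged to Ctsb, at 204, 292 and 269 TPM in Paro/Neo hearts and 339, 310 and 330 TPM in vehicle hearts, and to Ctsd, at 822, 975 and 917 TPM in Paro/Neo hearts and 1101, 1030 and 1051 TPM in vehicle hearts. The cathepsins B and D thus had lower values in each Paro/Neo heart, where cathepsin S had higher ones. Other cathepsin genes of the list, Ctsl, Ctsa and Ctsz, overlapped between the groups, with log2 changes of 0.03, -0.28 and -0.23. They were named after their values were seen. Paro/Neo replicate 1, the library that stood apart, was the lowest heart for Ctsb, Ctsd, Ctsa and Ctsz.

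Of the 10 chemokine receptor, integrin and other leukocyte genes, 8 had positive log2 changes, with a median of 0.25, and their summed level was 56.0 to 68.5 TPM in Paro/Neo hearts and 43.5 to 53.1 TPM in vehicle hearts. Ptprc encodes CD45, the phosphatase on all nucleated blood cells, and lies on chromosome 1 at 138062861 to 138175708. It was at 7.13, 5.67 and 6.19 TPM in Paro/Neo hearts and 2.85, 4.14 and 3.63 TPM in vehicle hearts, from 327, 215 and 227 inferred reads in Paro/Neo hearts and 132, 161 and 101 in vehicle hearts. The groups did not overlap, the means were 6.33 ± 0.743 TPM in Paro/Neo hearts and 3.54 ± 0.654 TPM in vehicle hearts (SD, n = 3 each), a ratio of 1.79. The log2 change was 0.70 ± 0.15 (SE), and limma gave an adjusted p of 0.236. Cd53, a tetraspanin of leukocytes, was at 11.96, 10.7 and 10.2 TPM in Paro/Neo hearts and 9.07, 8.75 and 7.84 TPM in vehicle hearts, likewise without overlap, and limma gave an adjusted p of 0.547. Other genes that most leukocytes share were mixed. The integrin chains of CD11b and CD18, Itgam and Itgb2, had log2 changes of 0.11 ± 0.13 (SE) and -0.10 ± 0.18 (SE). Laptm5, a lysosomal membrane protein of blood cells, was at 0.10 ± 0.21 (SE) and Cd84, a receptor of the SLAM family, at -0.07 ± 0.15 (SE) on the same log2 scale. Cd86, a ligand that costimulates T cells, had a log2 change of 0.18 ± 0.19 (SE). Aif1, the actin-binding protein IBA1, was at 14.4, 9.22 and 13.8 TPM in Paro/Neo hearts and 6.7, 8.17 and 11.4 TPM in vehicle hearts, where vehicle replicate 3 lay within the range of the Paro/Neo hearts.

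Both chemokine receptor genes had positive log2 changes with overlap. Ccr2, the receptor by which monocytes leave the marrow and enter tissue, was at 6.54, 5.16 and 8.99 TPM in Paro/Neo hearts and 2.76, 4.67 and 6.01 TPM in vehicle hearts, with a log2 change of 0.55 ± 0.26 (SE) and an adjusted p of 0.679 by limma. Without vehicle replicate 1, the lowest heart, the log2 change of Ccr2 was 0.30, and without Paro/Neo replicate 3, the highest, it was 0.36. Cx3cr1, the fractalkine receptor of patrolling monocytes and many resident macrophages, was at 6.16, 4.74 and 7.16 TPM in Paro/Neo hearts and 3.12, 5.01 and 3.69 TPM in vehicle hearts, with a log2 change of 0.51 ± 0.19 (SE) and an adjusted p of 0.569. In Cx3cr1 Paro/Neo replicate 2 lay below vehicle replicate 2. The ratio of Ccr2 to the resident marker Timd4 within a heart was 1.32, 0.928 and 1.64 in Paro/Neo hearts and 0.599, 1.45 and 1.37 in vehicle hearts, which overlapped.

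Of the 7 members that mark resident macrophages, 4 had positive and 3 negative log2 changes, with a median of 0.23 and 0 past the adjusted threshold by limma. Before adjustment 1 was higher and 0 lower, where 3.24% and 4.37% of all tested genes were. Timd4, a receptor for phosphatidylserine on dying cells, was at 4.94, 5.56 and 5.47 TPM in Paro/Neo hearts and 4.604, 3.22 and 4.395 TPM in vehicle hearts, and Mrc1, the mannose receptor, at 28.3, 33.97 and 30.6 TPM in Paro/Neo hearts and 27.3, 24.9 and 26.4 TPM in vehicle hearts. Both were higher in each Paro/Neo heart than in any vehicle heart, by small margins, with log2 changes of 0.33 ± 0.15 (SE) and 0.23 ± 0.11 (SE). Cd163, the scavenger receptor for haemoglobin bound to haptoglobin, was at 9.27, 12.2 and 10.8 TPM in Paro/Neo hearts and 9.73, 6.202 and 8.92 TPM in vehicle hearts, and F13a1, the coagulation factor XIII A chain, at 52.1, 46.6 and 33.5 TPM in Paro/Neo hearts and 34.4, 28.6 and 35.2 TPM in vehicle hearts, both with overlap. Folr2, a folate receptor, was at 25.8, 21.8 and 19.4 TPM in Paro/Neo hearts and 23.05, 22.8 and 23.7 TPM in vehicle hearts, and Pf4, a platelet chemokine also made by resident macrophages, at 41.6, 36.1 and 30.7 TPM in Paro/Neo hearts and 37.4, 41.9 and 36.3 TPM in vehicle hearts. In Folr2 and Pf4 the vehicle hearts lay within the range of, or close to, the Paro/Neo hearts, and the log2 changes were -0.06 ± 0.12 (SE) and -0.10 ± 0.13 (SE).

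Cbr2, a carbonyl reductase found in resident macrophages, split the vehicle group. It was at 27.5, 33.4 and 29.6 TPM in Paro/Neo hearts and 71.2, 23.9 and 78.9 TPM in vehicle hearts, so that vehicle replicates 1 and 3 lay above all other hearts and replicate 2 below them. Over all hearts the log2 change was -0.75 ± 0.39 (SE), and limma gave an adjusted p of 0.703. Without vehicle replicate 2 the log2 change was -1.29, and the adjusted p by limma was 0.0371, while without vehicle replicate 3 the log2 change was -0.45. Over 14 other ways of processing its adjusted p ran from 0.0371 to 0.900. Of the 7 surface and scavenger receptor genes, 5 had positive log2 changes, with a median of 0.17. The remaining ones were close between groups. Emr1 (F4/80) was at 8.84, 7.69 and 9.09 TPM in Paro/Neo hearts and 8.62, 6.698 and 7.15 TPM in vehicle hearts, Cd14, the co-receptor for bacterial lipopolysaccharide, at 10.9, 11.7 and 11.8 TPM in Paro/Neo hearts and 11.99, 12.9 and 8.15 TPM in vehicle hearts, and Ms4a7, a membrane protein of macrophages, at 4.61, 3.22 and 3.42 TPM in Paro/Neo hearts and 4.55, 5.44 and 3.32 TPM in vehicle hearts. All 3 overlapped.

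**Figure D4:**
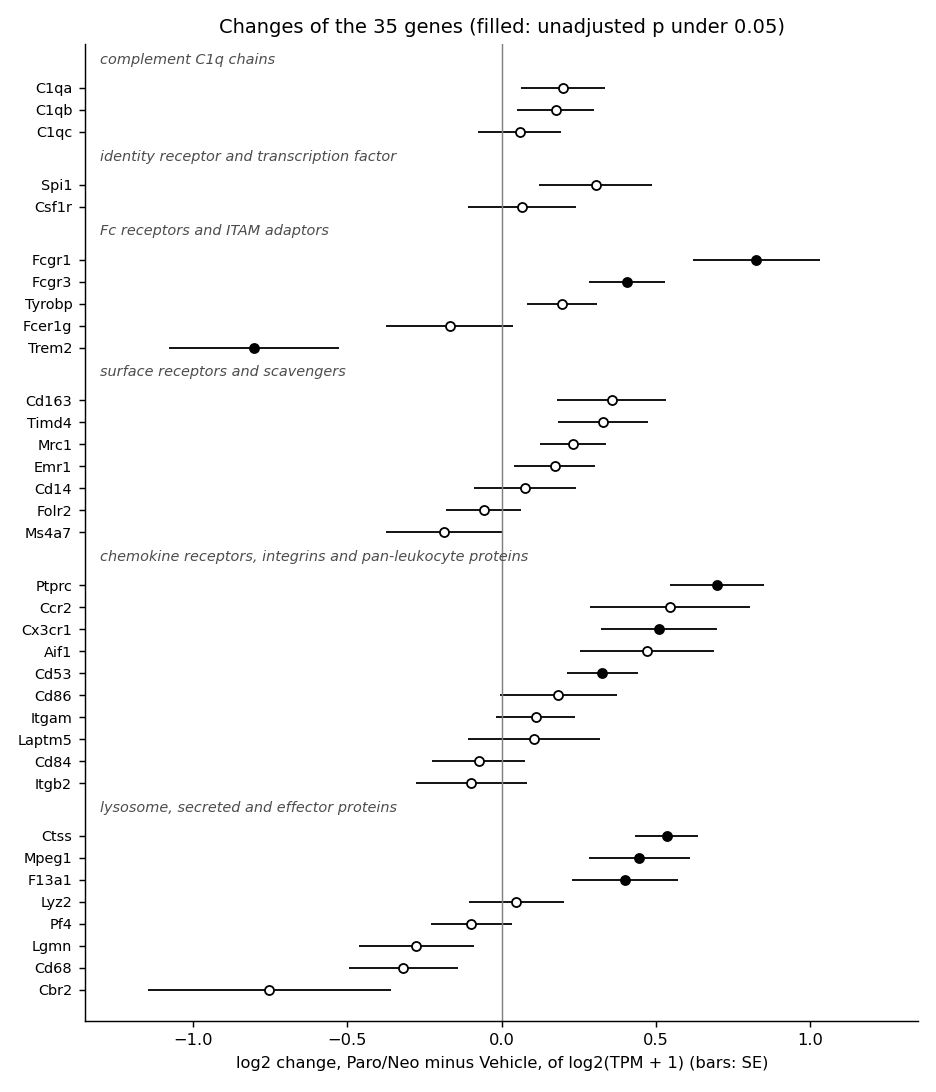
Log2 change of log2(TPM + 1), Paro/Neo minus vehicle, with its SE for each of the 35 genes, ordered by role, filled where the unadjusted p by limma was under 0.05. The changes run from -0.80 for Trem2 to 0.82 for Fcgr1, and 25 of the 35 lie right of 0.

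Set against Csf1r within each heart, 2 of the other 34 members had a higher and 2 a lower ratio in every Paro/Neo heart than in any vehicle heart, where 1.23% of all other tested genes had a higher and 6.44% a lower ratio without overlap. Fcgr1 over Csf1r was 0.254, 0.196 and 0.268 in Paro/Neo hearts and 0.1001, 0.161 and 0.0942 in vehicle hearts. Ptprc over Csf1r was 0.474, 0.271 and 0.296 in Paro/Neo hearts and 0.131, 0.237 and 0.242 in vehicle hearts. Trem2 over Csf1r was 0.0788, 0.0872 and 0.0774 in Paro/Neo hearts and 0.256, 0.197 and 0.130 in vehicle hearts, and Cd68 over Csf1r was 0.632, 0.711 and 0.743 in Paro/Neo hearts and 0.752, 0.977 and 1.07 in vehicle hearts. Ctss over Csf1r overlapped, at 3.96, 2.40 and 2.68 in Paro/Neo hearts and 1.75, 2.09 and 2.6002 in vehicle hearts.

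By heart, the median deviation of the 35 genes from the vehicle mean was 0.15, 0.17 and 0.18 on the log2 scale in Paro/Neo replicates 1 to 3, against 0.08, 0.01 and -0.04 in vehicle replicates 1 to 3. For all tested genes the same medians were -0.04 to 0.01 in Paro/Neo hearts and -0.01 to 0.02 in vehicle hearts. The highest of the 6 values was in Paro/Neo replicates 1, 2 and 3 for 9, 6 and 9 members, and in vehicle replicates 1, 2 and 3 for 4, 6 and 1. The lowest was in Paro/Neo replicates 1, 2 and 3 for 6, 2 and 2 members, and in vehicle replicates 1, 2 and 3 for 4, 9 and 12. Vehicle replicate 3, which held the lowest value for more members than any other heart, was also the library of least depth, and the part of depth in this was not tested.

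Further macrophage genes, outside the 35, were described in the same way. Of 24 tested, 17 were higher and 7 lower, the median log2 change being 0.12, with 0 past the adjusted threshold by limma. At an unadjusted p under 0.05 by limma 3 were higher and 0 lower, where 3.24% and 4.37% of all tested genes were. Ly86, the partner of a Toll-like receptor homologue, was at 15.3, 13.04 and 15.02 TPM in Paro/Neo hearts and 8.82, 8.63 and 9.997 TPM in vehicle hearts, a log2 change of 0.60 ± 0.12 (SE), and limma gave an adjusted p of 0.172. Msr1, a scavenger receptor, was at 4.02, 4.07 and 4.13 TPM in Paro/Neo hearts and 2.96, 2.77 and 3.05 TPM in vehicle hearts. Neither gene overlapped between groups. Of 18 tested genes of leukocyte signalling and cytoskeleton, 14 were higher and 4 lower, with a median of 0.22 and 0 past the adjusted threshold by limma. Before adjustment 3 were higher and 0 lower, beside the same shares of all tested genes. Coro1a, an actin regulator, was at 9.06, 9.17 and 9.86 TPM in Paro/Neo hearts and 6.19, 8.13 and 5.86 TPM in vehicle hearts, and Vav1, an exchange factor that acts below immune receptors, at 1.48, 1.58 and 1.33 TPM in Paro/Neo hearts and 0.850, 0.770 and 1.17 TPM in vehicle hearts.

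The growth factor and chemoattractant genes divided. Csf1, the main macrophage growth factor, was at 11.7, 15.6 and 15.9 TPM in Paro/Neo hearts and 13.1, 17.8 and 15.1 TPM in vehicle hearts, and Il34, its alternative ligand, ranged from 0.785 to 2.58 TPM over the 6 hearts, both with overlap. Of 17 tested ligands and receptors, 10 were higher and 7 lower, 1 past the adjusted threshold, where 0.137% of all tested genes were. That 1 was the monocyte chemoattractant Ccl12, which rose to 11.3, 9.48 and 10.1 TPM in Paro/Neo hearts, against 3.87, 4.63 and 4.17 TPM in vehicle hearts, a log2 change of 1.11 ± 0.12 (SE), and limma gave an adjusted p of 0.0242. Ccl8, a related chemoattractant, was at 11.1, 7.60 and 13.9 TPM in Paro/Neo hearts and 2.39, 3.14 and 3.58 TPM in vehicle hearts, and limma gave an adjusted p of 0.0552. Ccl2, the main ligand of Ccr2, overlapped at 12.6, 7.60 and 5.36 TPM in Paro/Neo hearts and 7.12, 8.51 and 7.57 TPM in vehicle hearts. Csf1, Il34 and Ccl2, and Cd3e and Camp in a later list, were chosen after their values were seen.

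Genes of blood monocytes were few and scattered. Of 5 tested, 2 were higher and 3 lower, with 0 past the adjusted threshold by limma. Before adjustment 0 were higher and 1 lower, where 3.24% and 4.37% of all tested genes were. The summed level of all 8 listed, Nr4a1 and Fn1 among them, was 16.4 to 23.1 TPM in Paro/Neo hearts and 22.1 to 28.7 TPM in vehicle hearts. Nr4a1, a factor of patrolling monocytes that many other cells also induce, was at 2.85, 3.02 and 5.49 TPM in Paro/Neo hearts and 11.2, 13.6 and 3.53 TPM in vehicle hearts. Fn1, which fibroblasts also make, was at 3.27, 8.30 and 7.18 TPM in Paro/Neo hearts and 7.25, 9.003 and 12.5 TPM in vehicle hearts. Ear2 was the third lower gene, with a log2 change of -0.31 ± 0.28 (SE). The 2 higher genes were Ly6c2, at 1.00 ± 0.90 (SE), and Plac8, at 0.28 ± 0.34 (SE) on the same scale. Ear2, Ly6c2 and Plac8 overlapped between the groups and were named after their values were seen.

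Interferon-induced genes and MHC class II genes, which cells other than macrophages also express, had larger log2 changes in the same hearts. All 27 interferon-induced genes had positive log2 changes, with a median of 1.23 and 8 past the adjusted threshold by limma, where 0.121% of all tested genes were called higher. Their median deviation from the vehicle mean was 1.42, 0.97 and 1.48 in Paro/Neo replicates 1 to 3 and -0.11, -0.03 and 0.17 in vehicle replicates 1 to 3. Ifit1, an interferon-induced RNA-binding protein, rose to 43.3, 23.2 and 39.0 TPM in Paro/Neo hearts, against 4.68, 5.42 and 5.32 TPM in vehicle hearts, and limma gave an adjusted p of 0.0113. B2m, which pairs with every MHC class I heavy chain, rose to 3269.5, 2245 and 2379.8 TPM in Paro/Neo hearts, against 737, 838 and 1001 TPM in vehicle hearts, and limma gave an adjusted p of 0.0202. Irf7 and Zbp1 also rose, with adjusted p of 0.0136 and 0.0151 by limma. All 6 tested MHC class II genes were positive, with a median of 1.00 and 0 past the adjusted threshold by limma. Before adjustment 6 were higher and 0 lower, where 3.24% and 4.37% of all tested genes were. H2-Aa, a class II alpha chain, was at 189, 139 and 277 TPM in Paro/Neo hearts and 64.7, 71.8 and 83.0 TPM in vehicle hearts. Cd74, the invariant chain that cathepsin S cleaves, was at 103, 98.1 and 197 TPM in Paro/Neo hearts and 46.1, 60.5 and 52.0 TPM in vehicle hearts. The part of interferon-induced transcription in the values of Ctss, Fcgr1 and Mpeg1 was not tested.

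**Figure D5:**
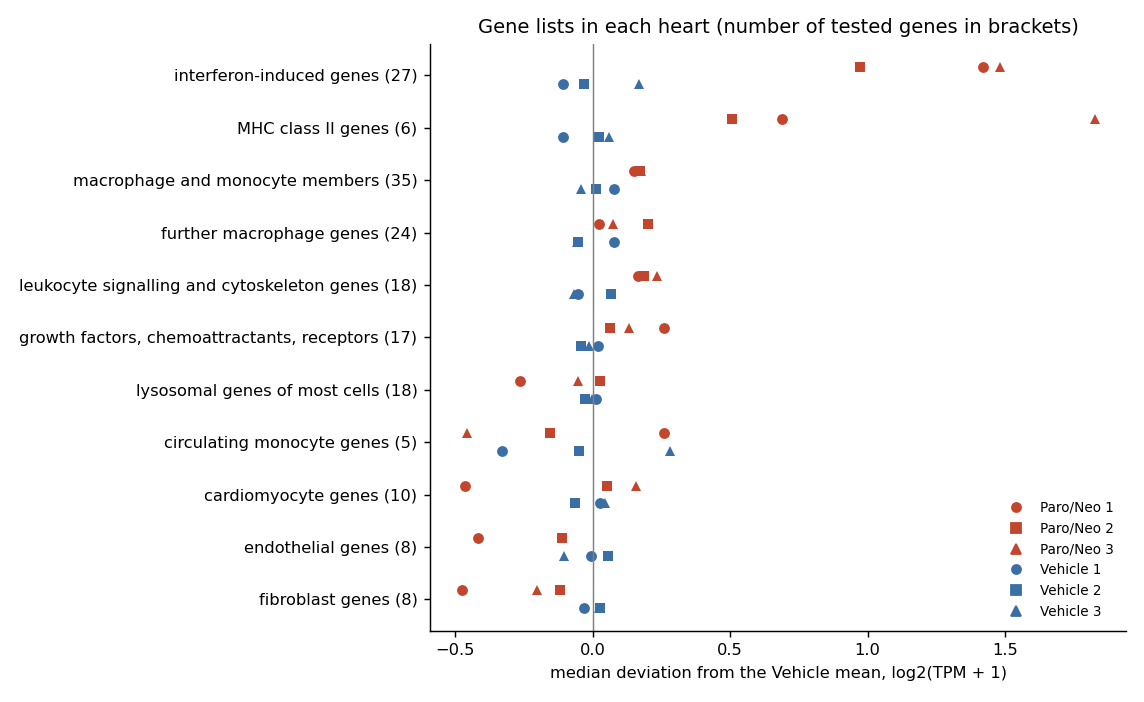
Median deviation from the vehicle mean, on the log2(TPM + 1) scale, of each gene list in each heart, with Paro/Neo hearts in red above vehicle hearts in blue. The 35 genes lie at 0.15 to 0.18 in Paro/Neo hearts and -0.04 to 0.08 in vehicle hearts, while the interferon-induced genes lie at 0.97 to 1.48 in Paro/Neo hearts and -0.11 to 0.17 in vehicle hearts.

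Markers of other leukocytes, which also express Ptprc and Cd53, were low but not absent. T and NK cell genes summed to 5.23 to 11.8 TPM in Paro/Neo hearts and to 2.52 to 5.39 TPM in vehicle hearts, and only Gzma, at 4.65, 1.87 and 4.04 TPM in Paro/Neo hearts and 0.695, 2.33 and 2.08 TPM in vehicle hearts, was high enough to test of the 10 genes analysed here from a list of 11. Cd3e, the T cell receptor signalling chain, was at 0 TPM in vehicle replicate 3 and at most 0.753 TPM in any heart. Neutrophil genes summed to 23.8 to 27.0 TPM in Paro/Neo hearts and to 8.33 to 18.5 TPM in vehicle hearts, with 2 of the 7 analysed here tested, from a list of 8. Of these, S100a8 was at 11.0, 10.3 and 9.06 TPM in Paro/Neo hearts and 2.80, 5.21 and 4.67 TPM in vehicle hearts, and S100a9 at 11.3, 11.1 and 14.1 TPM in Paro/Neo hearts and 3.96, 11.7 and 8.54 TPM in vehicle hearts, while Camp, a granule protein, was listed at 0 in 5 of the 6 hearts. S100a8 and S100a9 made up most of the neutrophil sum in every heart. Csf3r, Cxcr2, Retnlg and Mmp9, too low to test and named after their values were seen, overlapped between the groups. B cell genes summed to 2.63 to 3.05 TPM in Paro/Neo hearts and 1.31 to 3.15 TPM in vehicle hearts, and the 1 of 5 tested, Cd79b, a chain of the B cell receptor, was at 1.02 to 2.07 TPM over the 6 hearts. Dendritic cell genes summed to 4.54 to 6.27 TPM in Paro/Neo hearts and 4.41 to 5.53 TPM in vehicle hearts, and the 1 of 8 tested, the transcription factor gene Zbtb46, was at 2.69 to 3.41 TPM over the 6 hearts. The part of T, NK and neutrophil transcripts in Ptprc and Cd53 was not tested.

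Mast cell genes summed to 2.24 to 4.997 TPM in Paro/Neo hearts and to 4.44 to 16.5 TPM in vehicle hearts. Mcpt4, a mast cell protease, was at 0.624, 1.36 and 0.7798 TPM in Paro/Neo hearts and 6.29, 1.33 and 2.67 TPM in vehicle hearts, high in vehicle replicates 1 and 3, as Cbr2 was, and Cma1, a mast cell chymase, was at 0.574, 1.11 and 0 TPM in Paro/Neo hearts and 3.29, 0.542 and 1.13 TPM in vehicle hearts. Transcripts of red blood cells, a measure of blood left in the tissue, were at 221, 208 and 317 TPM for Hba-a1 in Paro/Neo hearts and 273, 345 and 449 TPM in vehicle hearts. Its groups overlapped, and its inferred reads equalled those of its copy Hba-a2 in every heart, so the 2 are not separate measurements. The same holds for Hbb-bs with Hbb-b1 and for Hbb-bt with Hbb-b2. All 7 blood genes, copies among them, had negative log2 changes, with a median of -0.33 and 0 past the adjusted threshold by limma. Before adjustment 0 of them were higher and 2 lower, the 2 being the copies Hba-a1 and Hba-a2. Hbb-bs, named after its values were seen, overlapped at 2951, 1843 and 2109 TPM in Paro/Neo hearts and 1631, 3015 and 3479 TPM in vehicle hearts. All 8 fibroblast genes had negative log2 changes, with a median of -0.34, 0 past the adjusted threshold by limma, and 0 higher and 3 lower before adjustment. Of 8 endothelial genes 7 were negative, with a median of -0.25, 0 past the adjusted threshold by limma, and 0 higher and 1 lower before adjustment. Col3a1, a fibrillar collagen, was at 80.6, 158 and 149 TPM in Paro/Neo hearts and 219, 216 and 223 TPM in vehicle hearts, lowest in the library that stood apart, and Postn, a matrix protein, was at 48.1, 47.8 and 34.4 TPM in Paro/Neo hearts and 53.6, 71.7 and 83.5 TPM in vehicle hearts. Pecam1, an adhesion molecule of endothelium, was at 96.3, 135 and 128 TPM in Paro/Neo hearts and 145, 147 and 151 TPM in vehicle hearts, and Cdh5, the endothelial cadherin, at 35.5, 63.01 and 73.9 TPM in Paro/Neo hearts and 75.03, 93.5 and 71.2 TPM in vehicle hearts. Among 10 cardiomyocyte genes, 5 had positive log2 changes, and 0 passed the adjusted threshold by limma, 1 being higher and 0 lower before adjustment. The unadjusted counts of the blood, fibroblast, endothelial and cardiomyocyte lists stand beside 3.24% of all tested genes higher and 4.37% lower. Myl3, a myosin light chain, was at 13114, 11295 and 11552 TPM in Paro/Neo hearts and 9927, 9569 and 9340.3 TPM in vehicle hearts, and Ryr2, the calcium release channel, at 127, 213 and 175 TPM in Paro/Neo hearts and 214, 227 and 223 TPM in vehicle hearts. The part of the makeup of the tissue piece in the values of the 35 genes was not tested.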

How the data were processed

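RNA from ventricles of 6 mice, 3 per group, was made into stranded mRNA libraries read at 76 bp, with RNA integrity numbers above 7, per the labels' protocols. The authors deposited TPM values in 1 table. Per the submitters' processing notes, FastQC 0.11.5, STAR 2.5.3a, Subread featureCounts and edgeR were used with build mm10; which annotation and strand setting they ran with is not given in the sources used here. A gene's TPM depends on all others, so a large rise elsewhere lowers it slightly.

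The test took every gene that reached 1 TPM in 3 or more of the 6 libraries, on log2(TPM + 1) with limma 3.58.1 in R 4.3.3 (empirical Bayes moderation with a trend on level, 4.03 prior degrees of freedom), two-sided, with Benjamini-Hochberg adjustment over all 12409 genes and a threshold of 0.05. The pseudocount of 1 TPM understates changes of low genes. A permutation test of 3 against 3 cannot go below 0.10. Whole reads were inferred from steps of TPM across libraries: 17574 of 17574 features above 0 were whole within 0.001 read. These are lower estimates, used for depth and for voom. Symbols were placed by GENCODE M21 (GRCm38), the build also called mm10. The fit was tested on simulated data. Alternatives were other pseudocounts, filters, scalings and weights, a replicate block, voom and leaving out each library. Same-numbered hearts did not deviate together (correlations -0.0528, -0.0356 and -0.122), so numbers were not taken as pairs. The labels call hearts biological replicates. The labels give no sex or litter.

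All 35 members are accounted for. From each other list, genes past the threshold were named, at most 4 by p, filled to 2 by the smallest p among those tested, and genes named outside this rule are marked as chosen after their values were seen. Members and lists were chosen with earlier results of these data known.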

Additional observations from a re-analysis of the deposited data

How the results depend on the processing

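The count of genes past the adjusted threshold over all tested genes was 15 higher and 2 lower in Paro/Neo hearts. Higher genes numbered 5 with no filter and 25 with the replicate block, and 4 to 23 when 1 library was left out. Lower genes numbered 1 with no filter, with the stricter filter of 5 TPM and with quantile normalization, 4 with array weights, and 0 to 4 when 1 library was left out. Of the 35 genes, 0 passed in every alternative but 1, where Cbr2 passed without vehicle replicate 2 (0 to 1 over the libraries left out). The median log2 change of the 35 was 0.17, and 0.11 to 0.25 with 1 library left out. The number with a positive log2 change was 25, and 21 to 25 with 1 library left out, while at the stricter filter 20 of the 26 tested were positive. Members higher at an unadjusted p under 0.05 numbered 8 over all hearts, 11 with array weights and 9 with the replicate block. With 1 library left out they numbered 6 to 9, where 2.40% to 3.80% of all tested genes were higher. Lower members numbered 1 over all hearts and 0 at the stricter filter, which does not test Trem2. With 1 library left out they numbered 0 to 2, where 2.87% to 5.81% of all tested genes were lower. For array weights, the replicate block and the stricter filter the share of all tested genes before adjustment is not given. Members higher without overlap numbered 10 to 12 with 1 library left out, where 9.59% to 12.6% of all tested genes were, and lower ones 2 to 4, where 12.8% to 16.0% of all tested genes were. The block changed no call of a member. Array weights turned the sign of Itgb2 (0.044) and Lyz2 (-0.050). With 1 library left out, log2 changes spanned 0 for C1qc (-0.030 to 0.18), Cd14 (-0.11 to 0.19), Csf1r (-0.051 to 0.22), Fcer1g (-0.32 to 0.065), Folr2 (-0.16 to 0.034), Itgb2 (-0.23 to 0.058), Laptm5 (-0.054 to 0.28), Lyz2 (-0.083 to 0.13) and Pf4 (-0.20 to 0.010). The causes were not tested. Replicate numbers were no pairs: Paro/Neo replicate 1 correlated best with vehicle replicate 3 (0.099). The no-overlap and unadjusted counts were recomputed by choices made after seeing the data. Depth limits Trem2 most, at 11 to 52 inferred reads per heart.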

Other observations

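A single heart stood apart in Tlr4, while Ly6c2 varied widely among the hearts of each group. Both were counted in the lists above. Tlr4, the receptor for bacterial lipopolysaccharide, was at 43.9, 19.2 and 19.8 TPM in Paro/Neo replicates 1, 2 and 3, and at 20.8, 19.0 and 19.9 TPM in vehicle replicates 1, 2 and 3. Paro/Neo replicate 1, the library that stood apart, thus lay above 5 hearts that were nearly equal. Ly6c2, the Ly6C antigen of inflammatory monocytes, was at 8.33, 5.97 and 0.771 TPM in Paro/Neo replicates 1, 2 and 3, and at 0.457, 0 and 8.89 TPM in vehicle replicates 1, 2 and 3. Each group held both high and low hearts for Ly6c2. Both genes were chosen after their values were seen.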
